A study of Mus musculus with 6 samples.

Results

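The 9 genes described here are neural progenitor transcription factors of 3 families: the POU3F genes Pou3f1, Pou3f2, Pou3f3 and Pou3f4, the SOXB genes Sox1, Sox2, Sox3 and Sox21, and Pax6. They were taken by symbol from a table of 17741 rows, through the NCBI gene number of each row, and all 9 were found. RNA-seq had been carried out on whole C57BL/6 mouse fetuses at 9.0 days post coitum. It gave 3 libraries labelled wild type (WT) and 3 labelled as overexpressing KLF12, a zinc-finger transcription factor of the Krüppel-like family. The submitters' stated interest was the mechanism of neural tube defects under raised KLF12. The labels give no promoter, driver or transgene for the overexpression, and they do not say whether a library is 1 fetus or a pool. The spread between libraries may therefore understate that between single fetuses, and it may be partly technical.

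SOXB1 factors (Sox1, Sox2 and Sox3) bind DNA through an HMG box and keep cells of the early neural plate and neural tube in a progenitor state. Sox21, a SOXB2 factor, recognises similar sites, acts mainly as a repressor, and counteracts SOXB1 factors as neurons form. POU3F factors, also called class III POU or Brn and Oct-6 factors, bind DNA through a POU-specific domain joined to a homeodomain and often occupy enhancers beside SOX2. Pax6, a paired-domain and homeodomain factor, patterns the eye, the forebrain and the intermediate part of the neural tube.

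Values are FPKM, a fragment number scaled to transcript length and to library size, so levels can be compared between genes per length. Differences are given on the log2(FPKM + 1) scale, on which changes of genes with low FPKM appear smaller than they are. The 9 genes were selected on their KLF12 and WT values in these same 6 libraries, so that contrast is a description for them, with no p-value. In bulk RNA from whole fetuses, more cells of a type and more RNA per cell cannot be told apart.

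Depth was estimated at between 16529000 and 18182000 fragments per library from the step that 1 fragment makes in low values. On that estimate the 8 POU3F and SOXB genes were covered by between 16 fragments (Pou3f4 in KLF12 library 1) and 1706 fragments (Sox2 in KLF12 library 3). Over log2 values, WT libraries correlated with each other at 0.975 to 0.978, and KLF12 libraries 1 and 2 at 0.972. KLF12 library 3 stood apart, with 0.957 and 0.951 to the other KLF12 libraries and 0.955 to 0.959 to the WT libraries. It was also the KLF12 library in which the Y-linked genes Ddx3y, Eif2s3y, Kdm5d and Uty were measured, at 2.63 to 9.86 FPKM. All 4 were listed at 0 in KLF12 libraries 1 and 2, and they were at 0.84 to 6.43 FPKM in the WT libraries. The differences of the 9 genes and the medians of the gene lists are therefore given with and without KLF12 library 3. Klf12 itself was at 1.99, 2.11 and 1.32 FPKM in WT and at 16.44, 15.15 and 23.94 FPKM in the KLF12 libraries, with no overlap (two-sided exact permutation p = 0.1, the smallest that 3 against 3 can give).

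The POU3F and SOXB genes are paralogs with close coding sequences, so the question arises whether reads can be assigned to single members. The 4 POU3F genes and the 4 SOXB genes each have 1 exon in the GENCODE M21 annotation of GRCm38. The 60-base coding windows most alike within each family are shown to let the paralogs be compared. Capitals mark bases that all 4 members share, and lower case marks bases that differ. In the POU3F window, which lies in the part coding for the POU-specific domain, 50 of 60 bases were shared.

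Pou3f1: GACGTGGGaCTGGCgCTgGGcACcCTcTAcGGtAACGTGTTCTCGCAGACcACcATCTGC
Pou3f2: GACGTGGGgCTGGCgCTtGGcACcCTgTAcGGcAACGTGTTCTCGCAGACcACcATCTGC
Pou3f3: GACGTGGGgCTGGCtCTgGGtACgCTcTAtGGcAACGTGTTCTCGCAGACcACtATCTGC
Pou3f4: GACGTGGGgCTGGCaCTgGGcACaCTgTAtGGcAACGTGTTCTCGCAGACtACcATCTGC

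In the SOXB window, which lies in the HMG box, 55 of 60 bases were shared.

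Sox1: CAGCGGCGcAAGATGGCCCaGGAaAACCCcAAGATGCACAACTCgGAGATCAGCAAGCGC
Sox2: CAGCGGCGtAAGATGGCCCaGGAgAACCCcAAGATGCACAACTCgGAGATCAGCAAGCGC
Sox3: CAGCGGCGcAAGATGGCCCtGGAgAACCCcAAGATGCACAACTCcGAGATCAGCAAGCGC
Sox21: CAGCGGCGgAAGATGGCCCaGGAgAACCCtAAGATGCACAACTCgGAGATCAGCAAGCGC

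These windows start at coding base 817 in Pou3f1, 874 in Pou3f2, 1015 in Pou3f3 and 640 in Pou3f4, and at coding base 193 in Sox1, 169 in Sox2, 472 in Sox3 and 64 in Sox21. Over the whole coding sequence, the longest stretch identical between a pair was 38 bases in the POU3F family (Pou3f1 and Pou3f2) and 45 bases in the SOXB family (Sox1 and Sox3). The shortest such stretch was 23 bases (Pou3f2 and Pou3f3, and Pou3f3 and Pou3f4). How reads shared by paralogs were counted is not given in the sources used here.

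In WT fetuses the order of levels was led by the SOXB1 genes. Sox2 had the highest mean, 22.7 ± 3.21 FPKM (SD, n = 3), followed by Sox3 at 16.2 ± 1.24. Their ranges, 20.55 to 26.43 and 15.25 to 17.60, did not meet. Pax6, Sox1 and Sox21 followed at 4.01 ± 0.425, 3.38 ± 0.723 and 3.15 ± 0.699 FPKM, with ranges that overlapped between neighbours. Pou3f1 was lower, at 1.62 ± 0.715 FPKM, and Pou3f2, Pou3f3 and Pou3f4 were the lowest, at 0.953 ± 0.385, 0.937 ± 0.255 and 0.667 ± 0.335. The ranges of these 4 POU3F genes overlapped between neighbours in that order, and that of Pou3f1 lay below the range of Sox21.

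Pou3f1, also known as Oct-6 or SCIP, is a POU factor of the early neural plate and later of myelinating glia. It was at 2.15, 0.81 and 1.91 FPKM in WT libraries 1, 2 and 3 and at 5.88, 5.47 and 8.25 FPKM in KLF12 libraries 1, 2 and 3. Every KLF12 library lay well above every WT library, and libraries 1 and 2 were close to each other. The means were 1.62 ± 0.715 and 6.53 ± 1.5 FPKM (SD, n = 3), a ratio of 4.02. The log2 difference was 1.54, and 1.39 without KLF12 library 3, where the ratio of means was 3.5. In each WT library Pou3f1 was below Sox1, Sox21 and Pax6. In KLF12 libraries 1 and 2 it was above these 3 genes, and in KLF12 library 3 below them again.

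The other POU3F genes differed less from WT in KLF12 libraries 1 and 2. Of them, only Pou3f3 lay above every WT library there. Pou3f2 (Brn2), which acts with SOX2 in neural progenitors and later in neurons, was at 0.95, 1.34 and 0.57 FPKM in WT and at 0.81, 1.0 and 3.83 in the KLF12 libraries. Libraries 1 and 2 lay within the WT range and library 3 was 4.23 times their mean. The log2 difference was 0.43 with all 3 libraries and -0.02 without library 3.

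Pou3f3 (Brn1), a close relative expressed in forebrain and kidney, was at 1.23, 0.81 and 0.77 FPKM in WT and at 1.57, 1.26 and 3.96 in the KLF12 libraries. The groups did not overlap, but the highest WT value, 1.23, and the lowest KLF12 value, 1.26, nearly met. The log2 difference of 0.67 became 0.32 without library 3.

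Pou3f4 (Brn4), an X-linked factor of the ventricular zone and the inner ear, was at 1.05, 0.52 and 0.43 FPKM in WT and at 0.32, 0.70 and 1.18 in the KLF12 libraries. The groups overlapped, with the lowest and the highest of the 6 values both in the KLF12 group. Its log2 difference was 0.04, and -0.14 without library 3. With a mean of 0.700 FPKM over the 6 libraries it fell under the filter of 1 FPKM used for the fit over all genes, which the other 8 passed.

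Within the POU3F family the make-up of the summed level therefore differed between libraries. Pou3f1 held 40.0%, 23.3% and 51.9% of the POU3F sum in WT libraries 1, 2 and 3. It held 68.5% and 64.9% in KLF12 libraries 1 and 2, above each WT library, and 47.9% in KLF12 library 3, within the WT range. The sum of the other 3 POU3F genes was 3.23, 2.67 and 1.77 FPKM in WT, 2.70 and 2.96 in KLF12 libraries 1 and 2, and 8.97 in KLF12 library 3.

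**Figure D1:**
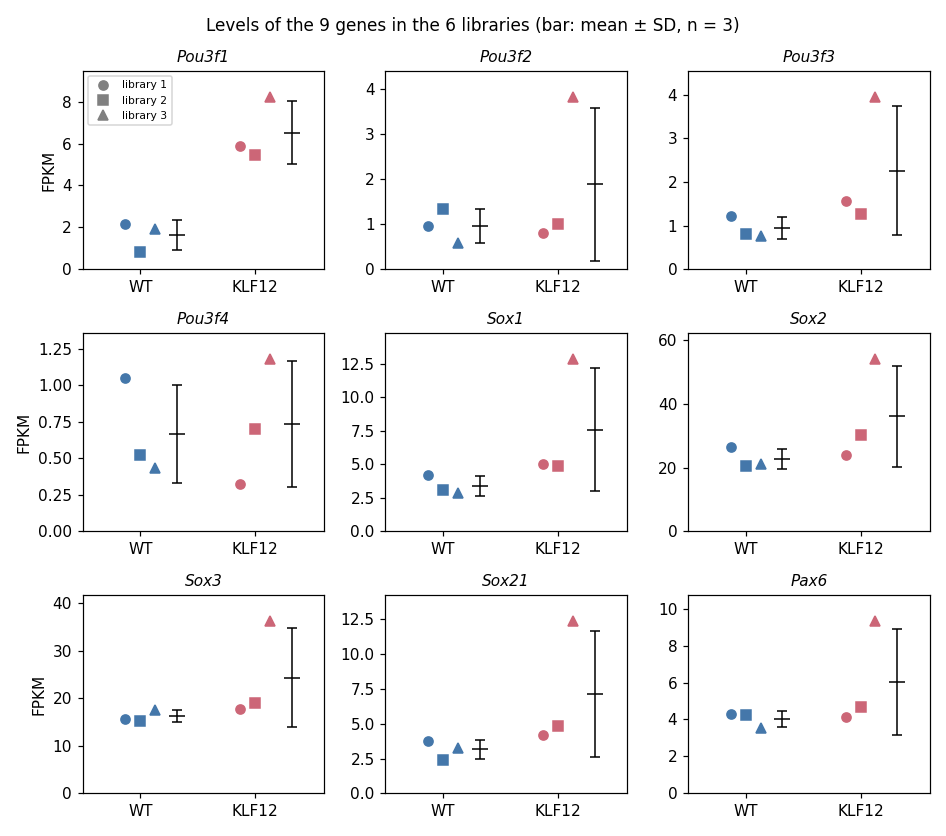
FPKM of each of the 9 genes (vertical axis, from 0, scaled per gene) in the 3 WT and 3 KLF12-overexpressing libraries, with symbols for libraries 1, 2 and 3 and a bar for mean ± SD (n = 3). Pou3f1 is the gene for which all 3 KLF12 libraries stand well above WT, at 5.47 to 8.25 against 0.81 to 2.15 FPKM, and KLF12 library 3 is the highest library for all 9 genes.

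Among the SOXB1 genes, Sox1, a marker of committed neuroectoderm, was at 4.21, 3.07 and 2.87 FPKM in WT and at 4.98, 4.85 and 12.86 in the KLF12 libraries. The groups did not overlap, and library 3 was 2.62 times the mean of KLF12 libraries 1 and 2. Its log2 difference was 0.85, and 0.44 without library 3.

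Sox2, which marks neural progenitors and also foregut endoderm and sensory placodes at this stage, was at 26.43, 20.55 and 21.24 FPKM in WT and at 24.05, 30.20 and 54.12 in the KLF12 libraries. KLF12 library 1 lay within the WT range, library 2 just above it and library 3 at 2.38 times the WT mean. The log2 difference was 0.57, and 0.24 without library 3.

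Sox3, an X-linked gene needed for hypothalamic and pituitary development, was at 15.72, 15.25 and 17.60 FPKM in WT and at 17.83, 18.93 and 36.26 in the KLF12 libraries. The groups did not overlap, but the highest WT value, 17.60, and the lowest KLF12 value, 17.83, were closer than the WT SD of 1.24. The log2 difference was 0.49, and 0.17 without library 3.

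In KLF12 library 3 Sox1, Sox2 and Sox3 were at 3.8, 2.38 and 2.24 times the WT mean, and the share of Sox2 in their sum stayed within the WT range. Sox2 held 57.0%, 52.9% and 50.9% of the SOXB1 sum in the WT libraries and 51.3%, 55.9% and 52.4% in the KLF12 libraries. The sums were 46.36, 38.87 and 41.71 FPKM in WT, 46.86 and 53.98 in KLF12 libraries 1 and 2, and 103.24 in KLF12 library 3.

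Sox21 was at 3.78, 2.40 and 3.28 FPKM in WT and at 4.20, 4.86 and 12.37 in the KLF12 libraries. Its groups did not overlap, and its pattern resembled that of Sox1, with library 3 at 2.73 times the mean of KLF12 libraries 1 and 2. On the log2 scale the difference was 0.85, and 0.42 without library 3.

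Pax6 was at 4.28, 4.23 and 3.52 FPKM in WT and at 4.11, 4.68 and 9.33 in the KLF12 libraries. KLF12 library 1 lay within the WT range, library 2 slightly above it, and library 3 at 2.33 times the WT mean. Its log2 difference was 0.42, and 0.11 without library 3.

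Over the 9 genes, the groups did not overlap in 5 (Pou3f1, Pou3f3, Sox1, Sox3 and Sox21), all higher in the KLF12 group. Of the 12141 genes that passed the filter of 1 FPKM, 7.9% were higher and 8.98% lower without overlap. The median log2 difference of the 9 genes was 0.57, against -0.02 over the genes tested. Without KLF12 library 3 these medians were 0.24 and -0.04, and 2 of the 9 values, those of Pou3f2 and Pou3f4, were negative. In KLF12 library 3 alone the median of the 9 genes lay 1.33 above the WT mean. Library 3 held the highest of the 6 values for 9 of the 9 genes, as it did for 30.2% of the genes tested. Since these values also chose the genes, the shares are given side by side and nothing further is read from them.

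**Figure D2:**
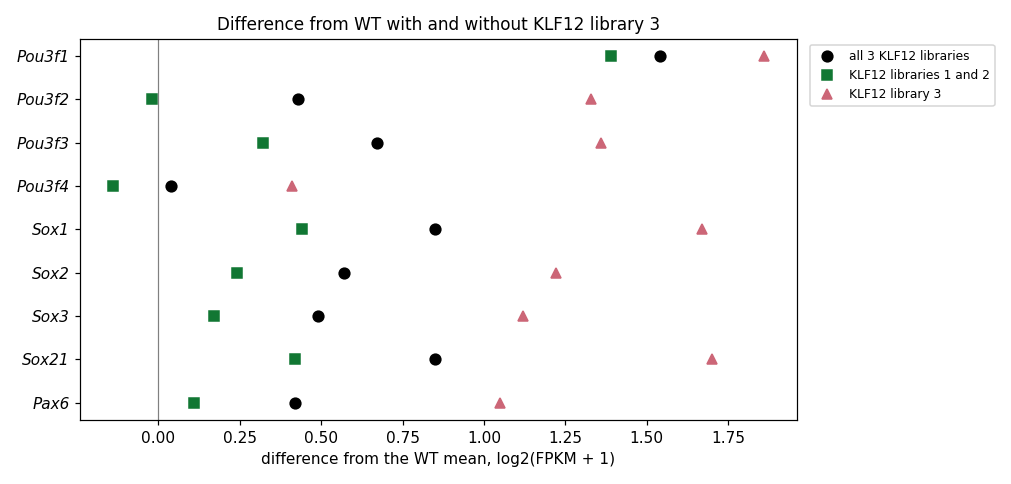
Difference from the WT mean on the log2(FPKM + 1) scale (horizontal axis) for each gene, with circles for all 3 KLF12 libraries, squares for KLF12 libraries 1 and 2, and triangles for KLF12 library 3. Without library 3, Pou3f1 keeps a difference of 1.39 while the other 8 genes lie between -0.14 and 0.44.

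In the fit of all 12141 genes with limma, 12 genes (0.0988%) were called higher and 77 (0.634%) lower at an adjusted p under 0.05. Of the 9 genes 8 were in the fit, without Pou3f4, and 1 was past that threshold, Pou3f1. Since the genes were selected on this contrast, nothing is read from that count. Without KLF12 library 3, 0.725% of the genes tested were called higher and 1.9% lower, and 0 of the same 8 genes were past the threshold.

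KLF12 library 3 also differed in how its values varied with transcript length: over 11674 genes, taken as a description since genes are not replicates, Spearman's rho between transcript length and the departure from WT was 0.412, against 0.064 and -0.181 for KLF12 libraries 1 and 2. The POU3F and SOXB transcripts are 2057 to 7409 bases long. Lengths were means over the GENCODE M21 transcripts of each gene. With that trend removed from each library, the median of the 9 genes, held by Sox2 before and after, stayed at 0.57. Log2 differences went from 1.54 to 1.5 for Pou3f1, 0.43 to 0.36 for Pou3f2, 0.67 to 0.58 for Pou3f3 and 0.04 to 0.02 for Pou3f4. They went from 0.85 to 0.79 for Sox1, 0.85 to 0.81 for Sox21 and 0.42 to 0.43 for Pax6. Sox2 and Sox3 stayed at 0.57 and 0.49. The part of transcript length in the values of KLF12 library 3 was not tested. The part of the Y-linked difference in these values was not tested.

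Other genes of the same families were compared next. Of 15 other SOX genes, 11 were tested and 0 were called in either direction (limma), 0 passed an unadjusted p under 0.05, and the median log2 difference was 0.25. Sox4 and Sox12, SOXC factors of progenitors and new neurons, had the smallest unadjusted p of the list. Sox4 was at 47.9 ± 6.86 FPKM (WT) and 59.5 ± 6.78 (KLF12), and Sox12 at 34.4 ± 4.21 and 43.9 ± 7.88 (SD, n = 3; limma adjusted p = 0.480 and 0.492). KLF12 library 3 was the highest library for 7 of the 11, and without it the list median was 0.03.

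Of 11 other POU genes 2 were tested, 0 were called by limma and 1 passed an unadjusted p under 0.05. Pou5f1 (Oct4), a pluripotency factor, was at 0.53, 0.67 and 0.77 FPKM in WT and at 2.49, 1.80 and 1.42 in the KLF12 libraries, without overlap (limma adjusted p = 0.280). Within the KLF12 group it was lowest in library 3, where each of the 4 SOXB genes was highest. Pou2f1, a widely expressed octamer-binding factor, was at 5.23, 5.78 and 5.52 FPKM in WT and at 4.61, 2.62 and 11.19 in the KLF12 libraries (limma adjusted p = 0.981). KLF12 libraries 1 and 2 lay below every WT library and library 3 above, and the log2 difference was -0.05, and -0.53 without library 3 (adjusted p = 0.230). The median of the pair was 0.37, and 0.19 without library 3.

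Of 8 other PAX genes 6 were tested, 0 were called by limma and 2 passed an unadjusted p under 0.05, with a median of 0.20. That median turned to -0.06 without KLF12 library 3. Pax5, a factor of the midbrain-hindbrain boundary, was at 0.767 ± 0.124 FPKM (WT) and 2.75 ± 1.35 (KLF12), and Pax1, a factor of the sclerotome and pharyngeal pouches, at 2.63 ± 1.41 and 0.660 ± 0.560 (SD, n = 3; limma adjusted p = 0.229 and 0.284). Their log2 differences were 1.02 and -1.12, and 0.76 and -1.34 without library 3.

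A list of 23 other neural progenitor genes, among them Nes, Notch1, Hes1, Hes5, Fabp7, Msi1 and Cdh2, was tested in full. By limma 0 of the 23 were called and 1 passed an unadjusted p under 0.05, a level that 1322 of all 12141 genes passed (555 higher, 767 lower). Of the 23 values 13 were positive and 10 negative, and the median was 0.02. Without KLF12 library 3 the median was -0.24 and 1 of the 23 was called, as lower. Prom1, a membrane protein of progenitors, was at 16.7 ± 2.42 FPKM (WT) and 24.1 ± 1.23 (KLF12) (limma adjusted p = 0.211). Rfx4, a winged-helix factor of the neural tube, was at 1.68 ± 0.170 and 3.46 ± 2.12 FPKM (adjusted p = 0.524), a log2 difference of 0.64 that became 0.27 without library 3. By library, the list median lay at -0.16 and -0.26 relative to the WT mean in KLF12 libraries 1 and 2 and at 0.63 in library 3, which was the highest library for 19 of the 23 genes. In KLF12 libraries 1 and 2 the 9 genes had medians of 0.13 and 0.23, within or near the WT span of -0.12 to 0.22.

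Regional genes of the neural tube were set beside them. Of 12 forebrain and eye field genes 8 were tested, 0 were called by limma and 1 passed an unadjusted p under 0.05, with a median of -0.13, and -0.16 without KLF12 library 3. Otx2, a forebrain and midbrain factor, was at 8.19 ± 2.67 FPKM (WT) and 14.3 ± 4.58 (KLF12), and Six6, an eye field factor, at 1.45 ± 0.288 and 0.723 ± 0.130 (limma adjusted p = 0.336 and 0.518). Their log2 differences were 0.73 and -0.50, and 0.50 and -0.51 without library 3. Of 14 midbrain and hindbrain genes 0 were called by limma (1 without KLF12 library 3). At an unadjusted p under 0.05, 5 passed, 4 higher and 1 lower. The median of this list was 0.28, and 0.17 without library 3. En1, a midbrain-hindbrain factor, was at 1.94 ± 0.370 and 5.58 ± 2.40 FPKM, and Fgf17, a growth factor of the same boundary, at 18.4 ± 2.39 and 9.59 ± 3.47 (adjusted p = 0.180 and 0.154). Without library 3 the log2 difference of En1 went from 1.10 to 0.85, and that of Fgf17 from -0.92 to -1.16 with an adjusted p of 0.0255 (limma).

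Among 19 dorsoventral neural tube progenitor genes 14 were tested and 0 were called by limma. At an unadjusted p under 0.05, 6 were higher and 0 lower, and the list had a median of 0.21. That median was 0.04 without KLF12 library 3. Nkx6-2, a ventral progenitor factor, was at 1.82 ± 1.10 FPKM (WT) and 7.02 ± 2.75 (KLF12), and Shh, the ventral midline signal, at 2.75 ± 1.76 and 8.50 ± 2.78 (limma adjusted p = 0.126 and 0.158). Their log2 differences were 1.53 and 1.43, and 1.42 and 1.2 without library 3. KLF12 library 3 was the highest library for 2 of the 8 forebrain and eye field genes, 11 of the 14 midbrain and hindbrain genes and 10 of the 14 dorsoventral genes.

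Proneural and neuronal genes, which act after the progenitor factors, were described next. Of 20, 10 were tested and 2 fell, Tubb3 and Gap43, with a median of -0.26 over the 10, and -0.37 without KLF12 library 3. At an unadjusted p under 0.05, 1 was higher and 3 lower. Tubb3, a neuronal beta-tubulin, was at 17.61, 15.53 and 16.53 FPKM in WT and at 0.69, 1.14 and 3.40 in the KLF12 libraries (log2 difference -2.80 ± 0.32 SE, limma adjusted p = 0.00599). Gap43, a growth cone protein, was at 44.50, 36.85 and 46.93 FPKM in WT and at 13.53, 19.99 and 8.84 in the KLF12 libraries (log2 difference -1.59 ± 0.25 SE, adjusted p = 0.0267). Both were below WT in KLF12 library 3, where Sox1, Sox2, Sox3 and Sox21 were highest. Within the KLF12 group, however, Tubb3 was highest in library 3 and Gap43 lowest. With 1 library left out the adjusted p reached 0.061 for Tubb3 and 0.176 for Gap43, and the number called in the list was 0 without WT library 2 or 3 and 1 without WT library 1 or KLF12 library 1.

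**Figure D3:**
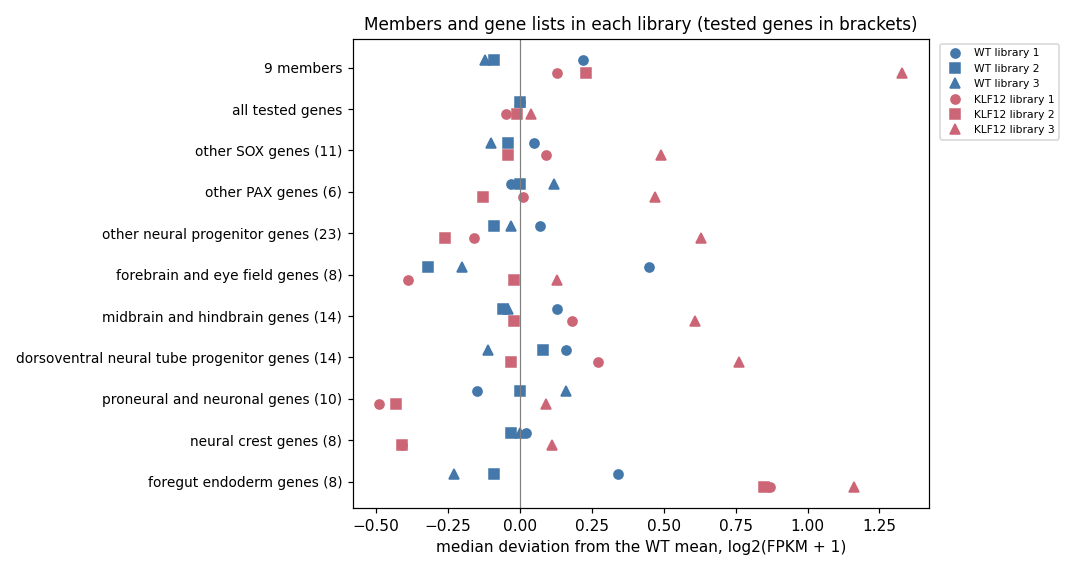
Median deviation from the WT mean on the log2(FPKM + 1) scale (horizontal axis) of the 9 genes, of all genes tested and of 9 gene lists, with 1 symbol per library and the number of tested genes in brackets. KLF12 library 3 lies to the right of all other libraries for the 9 genes (1.33). It does so too for each list except the forebrain and the neuronal ones, with dorsoventral genes at 0.76 and other neural progenitor genes at 0.63. Foregut endoderm genes lie to the right of WT in all 3 KLF12 libraries (0.85 to 1.16).

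Sox2 and Pax6 are also expressed outside the neural tube. Foregut endoderm, which expresses Sox2, was followed with 10 genes, of which 8 were tested, 8 had positive values, 5 were higher at an unadjusted p under 0.05 and 1 rose. The median was 0.95, and 0.84 without KLF12 library 3. Among the 5 higher genes were Shh and Foxa2, which are also in the dorsoventral list and passed there too (limma unadjusted p = 0.0035 and 0.00496). The gene that rose was Trh, a releasing hormone precursor, at 4.66, 3.66 and 1.89 FPKM in WT and at 23.19, 15.56 and 9.69 in the KLF12 libraries (limma adjusted p = 0.0390). Its adjusted p was 0.0199 to 0.185 with 1 library left out, and the number called in the list was then 0 in the fits without WT library 1, 2 or 3 or KLF12 library 1 or 2. The summed level of the 8 foregut genes was 35.6 to 61.4 FPKM in WT and 87.8 to 95.7 in the KLF12 group. Within the KLF12 group Trh was lowest in library 3, where Sox2 was highest.

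Of 15 surface ectoderm and placode genes, where Sox2, Sox3 and Pax6 are also expressed, 1 fell, the tight junction gene Cldn3, from 7.36 ± 1.24 to 1.41 ± 0.682 FPKM (limma adjusted p = 0.0158), and 14 were not called. At an unadjusted p under 0.05, 7 of the 15 were lower and 0 higher. Of the 15 values 14 were negative, and in 8 the KLF12 group lay below WT without overlap. Over all 12141 genes tested, 767 were lower at that level and 8.98% lay below WT without overlap. The median was -0.35, and -0.45 without KLF12 library 3. The number called was 0 without WT library 1, 2 or 3 or KLF12 library 2, and 2 without KLF12 library 3. Their summed level was 681 to 736 FPKM in WT and 388 to 666 in the KLF12 group, lowest in library 3.

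Neural crest genes, 8 of 9 tested, had 0 called by limma, 0 at an unadjusted p under 0.05, a median of -0.22 and sums of 157 to 163 FPKM in WT and 123 to 166 in the KLF12 group. Of caudal progenitor and presomitic mesoderm genes, 9 of 10 were tested, 0 were called, and 3 were lower at an unadjusted p under 0.05. That list had a median of -0.27 and sums of 121 to 154 FPKM in WT and 109 to 142 in the KLF12 group. Without KLF12 library 3 the medians of these lists were -0.41 and -0.51, and 1 gene was called in each, as lower. The part of these tissues in the levels of the 9 genes was not tested.

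The other lists covered tissues in which the 9 genes are not known as markers. Primitive erythroid, endothelial, visceral endoderm and decidual genes had 0 of 8, 7, 8 and 2 tested genes called by limma. At an unadjusted p under 0.05, 7 erythroid genes were lower, and 1 endothelial and 5 visceral endoderm genes were higher. Decidual genes had 0 at that level. In the same order, the list medians were -1.03, 0.21, 1.18 and -0.29. Leaving out KLF12 library 3 gave -1.25, 0.30, 1.31 and 0.12. Single WT libraries stood apart in the visceral endoderm list, whose median deviation was 1.16 in WT library 1, -0.15 and -1.10 in WT libraries 2 and 3, and 0.90 to 1.39 in the KLF12 libraries. The summed decidual level was 14.6 FPKM in WT library 3 and 12.3 in KLF12 library 2, against 0.45 to 1.69 in the other libraries. Without KLF12 library 3, 1 erythroid gene was called lower, and without WT library 1, 1 visceral endoderm gene was called higher. Of 9 cardiac muscle genes 3 fell, Myl3, Myh7 and Myl2, and the median was -0.37, and -0.17 without KLF12 library 3. The number called was 0 without WT library 1, 2 or 3 and 1 without KLF12 library 1.

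The genes whose pattern over the 6 libraries was most like that of Pou3f1 were Ankrd26, Mfap3l, Frat2, Tapt1 and Ehhadh, with Pearson r of 0.9911, 0.9847, 0.9835, 0.9826 and 0.9817 on log2 values. Ankrd26 was at 5.37, 3.96 and 4.93 FPKM in WT and at 7.27, 7.87 and 8.51 in the KLF12 libraries, so it too was lowest in WT library 2 and highest in KLF12 library 3. Those most like Sox2 were C2cd3, Egr2, Wdtc1, Tie1 and Tasor, with r of 0.9896, 0.989, 0.9881, 0.9879 and 0.9851. C2cd3, a centriolar protein gene, was at 9.06, 8.22 and 8.53 FPKM in WT and at 8.95, 10.53 and 17.13 in the KLF12 libraries, and Egr2, a hindbrain segment factor, at 0.68, 0.45 and 0.47 and at 0.58, 1.27 and 2.90. These correlations are the highest among the 12141 genes tested and are given as a description. All 10 genes were highest in KLF12 library 3, as Pou3f1 and Sox2 were, which follows largely from how they were picked.

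The sequence before the start site was examined because KLF factors bind CACCC boxes and GC boxes. RefSeq promoters (GRCm38.p6) were matched for 7 of the 9 genes, Pou3f2, Pou3f3, Pou3f4, Sox1, Sox2, Sox21 and Pax6, the last with 2 start sites. Over the 250 bases before each start, CACCC or its complement GGGTG was found in 3 of the 7 genes, all POU3F (Pou3f2, Pou3f3 and Pou3f4), and in 52.0% of all 32851 promoters. GGGCGG or CCGCCC was found in 4 of the 7 (Pou3f2, Pou3f3, Sox1 and Sox2) and in 32.7% of all promoters. The POU octamer core ATGCAAA or TTTGCAT was found in Sox2 and in 4.1% of all promoters, and the SOX core ACAATG or CATTGT in 0 of the 7 and in 10.7%. The searched motifs do not overlap each other in the sequences below.

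3 promoters are printed, those of Sox2, which has the octamer core, of Sox1, which has the most GC boxes of the 7, and of Pou3f3, which has the most CACCC boxes. Capitals mark the searched motifs on either strand, and each sequence is written 5′ to 3′ on the strand of the gene. The Sox2 stretch is chr3:34649745-34649994 on the plus strand, with 2 GC boxes, 1 octamer core and 0 CACCC boxes.

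Sox2: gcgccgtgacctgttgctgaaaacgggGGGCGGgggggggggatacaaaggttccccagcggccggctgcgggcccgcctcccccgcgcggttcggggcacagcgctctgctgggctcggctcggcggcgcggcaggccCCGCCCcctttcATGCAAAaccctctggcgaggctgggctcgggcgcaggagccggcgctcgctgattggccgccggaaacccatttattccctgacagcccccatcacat

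The Sox1 stretch is chr8:12395269-12395518 on the plus strand, with 3 GC boxes and 0 CACCC boxes.

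Sox1: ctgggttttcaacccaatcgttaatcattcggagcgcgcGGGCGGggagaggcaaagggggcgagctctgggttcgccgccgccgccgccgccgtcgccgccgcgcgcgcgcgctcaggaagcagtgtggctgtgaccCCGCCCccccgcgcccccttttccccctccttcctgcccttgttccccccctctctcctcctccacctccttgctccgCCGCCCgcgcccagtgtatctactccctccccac

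The Pou3f3 stretch is chr1:42695518-42695767 on the plus strand, with 2 CACCC boxes and 1 GC box.

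Pou3f3: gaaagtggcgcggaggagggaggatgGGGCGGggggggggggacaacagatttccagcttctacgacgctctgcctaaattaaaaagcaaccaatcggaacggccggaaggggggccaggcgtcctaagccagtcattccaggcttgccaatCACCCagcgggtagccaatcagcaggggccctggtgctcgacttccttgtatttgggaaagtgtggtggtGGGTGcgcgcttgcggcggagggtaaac

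The 3 stretches, chosen for their motifs, had a GC content of 72.0%, 71.2% and 60.8%. The stretches not printed had 66.8% (Pou3f2), 65.2% (Sox21), 58.0% (Pou3f4), and 60.8% and 47.6% (Pax6). The median over all promoters was 52.4% (quartiles 45.2% and 61.2%). A match is a description of these letters and not a binding site.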

How the data were processed

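The authors deposited 1 table of FPKM, rounded to 2 decimals, with 6 value columns, per the file headers. CASAVA, HISAT2 2.0.4, RSEM 1.2.8 and mm9 are named, without role, per the submitters' processing notes. RNA was taken with Trizol, per the labels' protocols; the annotation and strand setting are not given in the sources used here. Symbols from the RefSeq table (GRCm38.p6) were found for 16874 of 17741 rows.

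Values were analysed as log2(FPKM + 1) with limma 3.58.1 under R 4.3.3 and an intensity trend, for the 12141 genes averaging 1 FPKM or more over the 6 libraries, with Benjamini-Hochberg adjustment over all of them. Depth was estimated from the periodic step of low FPKM values in genes with 1 GENCODE M21 transcript, using transcript length minus 150 bases. Whole fragments were not recovered, so no count test was run. The fit was tested on simulated data. It called 56 of 100 genes raised by 1 on the log2 scale, 93 of 100 raised by 2 and 6 of 11941 left unchanged. A gene that differs by 1 can thus go uncalled.

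The 9 genes, the 18 lists and the tests were chosen with earlier results of these data known. Some lists share genes, so the counts of different lists are not all separate. Up to 4 called genes per list were to be named, or the 2 of smallest unadjusted p where none was called, beside the 5 genes most like Pou3f1 and Sox2; not all are reported here. A list of 4 transcripts overlapping or antisense to the 9 genes had 0 members matched in the table, so overlapping transcription was not analysed here. A comparison of protein sequences was planned and not run. Alternatives covered the pseudocount, filter, scaling, variance model, array weights, replicate block, each library left out and, added after seeing the data, the transcript length trend.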

Additional observations from a re-analysis of the deposited data

How the results depend on the processing

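Klf12 kept its direction and call in each alternative run. The 9 genes had a median log2 difference of 0.21 (array weights) to 0.80 (without KLF12 library 1), and 4 to 7 of them had groups that did not overlap. Of 153 single values, 6 were negative: Pou3f2 at -0.02 with array weights and without KLF12 library 3, and Pou3f4 at -0.20 with array weights and at -0.01, -0.06 and -0.14 without WT library 2, WT library 3 or KLF12 library 3. The number of the 9 genes past the threshold, from which nothing is read because they were selected on this contrast, was 0 in place of 1 at a pseudocount of 0.1, without a filter, at a mean of at least 5 FPKM, which leaves Pou3f1 out, and as TPM; with each library left out it was 0 to 0.

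The number of genes called was 29 without a filter (4 higher, 25 lower), 55 as TPM (6 and 49), 1585 with array weights (560 and 1025), 173 at an adjusted p under 0.1 (27 and 146), 148 after taking out the length trend (25 and 123) and 14 to 319 with each library left out. With the replicate block 64 genes were called (12 and 52), erythroid genes had 1 call and cardiac genes 1. Between libraries of the same number the correlations of deviations were 0.027, -0.107 and 0.036, so no pairing was visible.

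With array weights the calls were 1 in other SOX (0 higher, 1 lower) and 1 in other POU genes (1 and 0). They were 2 in other PAX (1 and 1), 3 in other neural progenitor (1 and 2) and 1 in forebrain genes (0 and 1). Midbrain and hindbrain had 4 (3 and 1), dorsoventral 5 (4 and 1), neuronal 4 (1 and 3) and caudal 3 (0 and 3). Surface ectoderm had 3 (0 and 3), foregut 4 (4 and 0) and neural crest 3 (0 and 3). Erythroid genes had 7 (0 and 7), endothelial 2 (2 and 0) and visceral endoderm 3 (3 and 0). Without a filter the calls were 0 in neuronal, surface ectoderm and foregut and 1 in cardiac genes. Quantile normalization gave 1 in neuronal and 0 in foregut genes, no intensity trend gave 1 in neuronal, 0 in foregut and 1 in cardiac genes, and TPM gave 1 in cardiac genes. With a filter of 5 FPKM surface ectoderm had 0, and at an adjusted p under 0.1 both surface ectoderm and foregut had 2. With the length trend removed foregut had 2. With each library left out the calls ranged from 0 to 1 in other neural progenitor, midbrain and hindbrain, caudal, neural crest, erythroid, visceral endoderm and foregut genes, from 0 to 2 in surface ectoderm genes and from 0 to 3 in neuronal and cardiac genes. For all of these shifts the cause was not tested.

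The CACCC, GC box, octamer and SOX cores were held by 2, 1, 1 and 0 of the 7 genes in the 100 bases before the start. Depth limits Pou3f4 most, at an estimated 16 to 54 fragments per library.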
